A study of Mus musculus with 2 samples.

Results

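The miR-30 family was described in B16 cells through its 5 guide-strand microRNAs, mmu-miR-30a-5p, mmu-miR-30b-5p, mmu-miR-30c-5p, mmu-miR-30d-5p and mmu-miR-30e-5p, written below without the species prefix. They were found by their exact probe names on both arrays, and each had 1 spot among 1900 miRNA probes. All 5 exceeded the detection threshold on both arrays. B16 is a pigmented mouse melanoma line. Both groups were kept in medium with 5% serum, preincubated for 24 h, given a lipid-delivered small interfering RNA (siRNA), and harvested for total RNA 48 h later. One group received a control siRNA and the other an siRNA against Fam222B, with 1 array each. With so few arrays no replicate error can be given, the groups cannot be tested against each other, and precision is limited accordingly. Knockdown of Fam222B itself was not checked here, since the probes target miRNAs only.

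MicroRNAs are short RNAs that guide Argonaute proteins to messenger RNAs, which are then repressed. The bases near the 5′ end, called the seed, do most of the target pairing, so microRNAs with the same seed share many targets. The miR-30 family is expressed in many tissues and is known for roles in differentiation, autophagy and epithelial-mesenchymal transition, and miR-30b and miR-30d have been studied in melanoma metastasis.

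The mature sequences are shown because the members are alike in the seed and differ further along, which bears on what a hybridisation probe can tell apart. RefSeq (mouse build GRCm38.p6) gave a sequence for 3 of the 5 members, printed 5′ to 3′ with the seed, bases 2 to 8, in capitals.
miR-30a-5p: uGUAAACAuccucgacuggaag
miR-30c-5p: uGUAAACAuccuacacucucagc
miR-30e-5p: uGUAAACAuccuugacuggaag
miR-384-5p: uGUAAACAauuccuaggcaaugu
miR-384-5p is no member and is shown because it was the other array miRNA with this seed among the 1614 that had a sequence in the table. The sequences of these 3 members are identical over their first 12 bases. Counted from the 5′ end, miR-30a-5p and miR-30e-5p differ by the single substitution C13U and match at 21 of 22 positions. miR-30a-5p and miR-30c-5p match at 17 of the first 22, the substitutions being C13A, G14C, G18C, G19U and A20C. miR-384-5p and miR-30a-5p are identical over their first 8 bases and match at 12 of the first 22 positions. How far a probe also binds the RNA of another member was not tested.

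miR-30a-5p lies at chr1:23272274-23272295 and one copy of miR-30c-5p at chr1:23291714-23291736, both on the plus strand, with no annotated gene between their hairpins. The other copy of miR-30c-5p lies at chr4:120769584-120769606 and miR-30e-5p at chr4:120772660-120772681, both on the minus strand and inside Nfyc, which encodes a subunit of the transcription factor NF-Y. The probe for miR-30c-5p cannot tell the products of its 2 loci apart. In the annotation the hairpins Mir30b and Mir30d also neighbour each other.

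Each value below is a spot's median intensity minus the mean of the array's 896 blank spots, which was 70.3 units for control-siRNA and 69.9 for Fam222B-siRNA. The spot SD combines the spread among the 8 copies of each of 5 bright control probes (pooled CV 4.67% on the control-siRNA array and 4.78% on the other) with that of the blanks (SD 1.54 and 1.66 units). It covers spread within an array only, and holds no difference between cultures, RNA preparations or hybridisations. In control-siRNA cells 1219 miRNAs were detected and in Fam222B-siRNA cells 958, with 910 on both. miR-211-5p, a melanocyte miRNA from an intron of Trpm1, gave 264 and 326 net units, and its relative miR-204-5p 36.3 and 30.2. miR-146a-5p, the remaining miRNA on the list used for melanocytes, was at 1.93 and 4.16. It was detected with the Fam222B siRNA alone, too close to the background to read a difference. Other cell types' marker lists gave summed net signals, with values below the blank mean counted as negative, of 26.3 and 8.85 (blood, 5 miRNAs), 16.4 and 2.93 (epithelium, 5) and 11.9 and 3.78 (muscle, 3). In each of these lists 1 marker was detected on both arrays: miR-451a (13.5 and 12.2), miR-200b-3p (2.38 and 3.66) and miR-133a-3p (3.34 and 3.31). Most of the fall in the sums came from other spots near the threshold. That direction was common on these arrays, with 309 miRNAs detected in control-siRNA cells alone and 48 in Fam222B-siRNA cells alone. The 5 fibroblast and smooth muscle markers summed to 235 and 202, with miR-143-3p (140 and 112) and miR-145a-5p (54.0 and 42.9) below 0 on the scaled log2 difference introduced below and the other 3 above it (median of the 5, 0.25). The liver marker miR-122-5p was not detected on either array, and of the neuronal markers miR-9-5p gave 129 and 143 net units and miR-124-3p 3.56 and 1.51, the latter below the threshold with the Fam222B siRNA.

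miR-30b-5p and miR-30c-5p carried most of the family's signal on each array. Of the summed net signal of the 5 members they held 59.5% after the control siRNA and 58.1% after the Fam222B siRNA. These are shares of spot brightness and not of molecules, because probes differ in how strongly they bind.

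miR-30b-5p, which shares a cluster with miR-30d-5p, gave 655 net units with the control siRNA and 590 with the Fam222B siRNA. miR-30c-5p, made from both the Mir30c-1 and Mir30c-2 hairpins, gave 614 and 616. The order of this pair was thus not the same on the 2 arrays, but the gap was 0.987 spot SD on the first and 0.638 on the second, so these neighbours did not differ beyond their spread.

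miR-30d-5p followed with 380 net units with the control siRNA and 385 with the Fam222B siRNA. miR-30a-5p gave 330 and 327. miR-30d-5p was the brighter of them on each array, by 2.10 and 2.36 spot SD.

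miR-30e-5p, encoded in Nfyc, was the dimmest member, at 153 net units with the control siRNA and 160 with the Fam222B siRNA. It stood 10.3 and 9.56 spot SD below miR-30a-5p, from which its sequence differs only by C13U. The step from the brightest pair down to miR-30d-5p was likewise wide, at 6.92 and 6.09 spot SD. By spot brightness on each array, miR-30b-5p and miR-30c-5p were thus at the top, without a clear order. miR-30d-5p came next, miR-30a-5p followed at a narrower step, and miR-30e-5p was lowest.

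**Figure D1:**
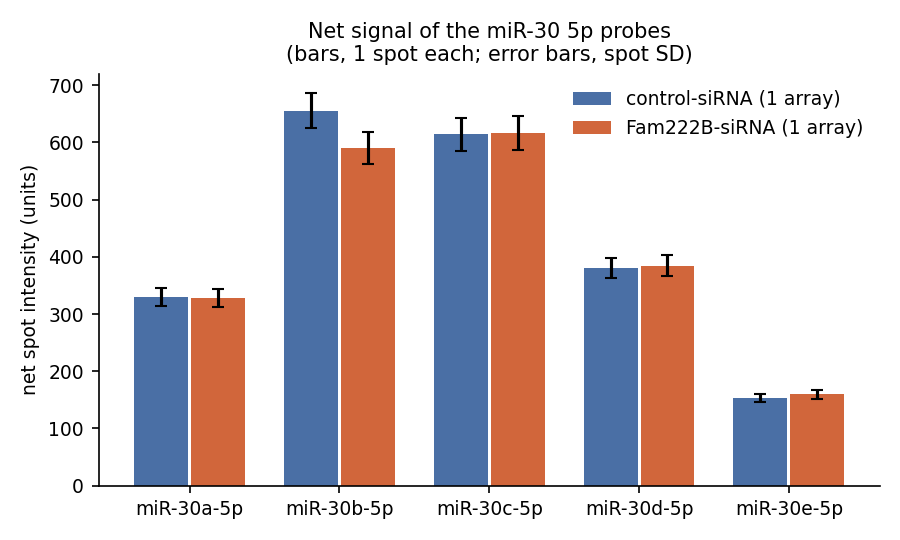
Net spot intensity in units (vertical axis, from 0) of each miR-30 member in control-siRNA and Fam222B-siRNA cells, 1 spot per bar, with the spot SD as error bar. miR-30b-5p (655 and 590) and miR-30c-5p (614 and 616) are the tallest, and miR-30e-5p (153 and 160) is the lowest in both groups.

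By share of the family signal, miR-30b-5p held 30.7% with the control siRNA and 28.4% with the Fam222B siRNA, and miR-30c-5p 28.8% and 29.7%. miR-30d-5p held 17.8% and 18.5%, miR-30a-5p 15.5% and 15.8%, and miR-30e-5p 7.17% and 7.68%. The widest gap between the arrays was that of miR-30b-5p, and the other 4 members each held a slightly larger share in Fam222B-siRNA cells. Shares of 1 sum are tied, so a lower share of miR-30b-5p raises those of the others together. The share of miR-30a-5p was larger although its net signal was 330 and 327. No spot SD was computed for the shares.

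All members were far above the background. Their net signals were between 99.5 and 426 times the SD of the blank spots in control-siRNA cells, and between 96.0 and 355 times in Fam222B-siRNA cells. Among all detected miRNAs, miR-30b-5p ranked 19th in brightness with the control siRNA and 24th with the Fam222B siRNA, and miR-30c-5p ranked 22nd and 20th. miR-30e-5p ranked 73rd on each array. Together the 5 members made up 1.42% and 1.39% of the net signal of all detected miRNAs.

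The comparison between the arrays asked whether the siRNA against Fam222B went with another level of the family. As measured, without any scaling, 3 members were slightly brighter and 2 dimmer in Fam222B-siRNA cells. The summed net signal was 2133 units with the control siRNA and 2078 with the Fam222B siRNA, an unscaled change of -2.58%. The median log2 ratio of the 910 miRNAs detected on both arrays was -0.12 before scaling. Over the miRNAs with 100 net units or more on each array it was 0.018, so the brighter probes were not dimmer as a group. The Fam222B-siRNA values were multiplied by 1.09 to set the median of the 910 to 0. All log2 differences below are Fam222B-siRNA over control-siRNA on this scale unless stated.

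No member reached 1.5-fold in either direction, a size that 15.7% of the 910 miRNAs reached (7.14% higher and 8.57% lower). None reached 2-fold, against 5.38% of the 910 (2.97% higher and 2.42% lower). None lay more than 2 spot SD from 0, against 9.56% (7.8% higher and 1.76% lower). Most probes past 1.5-fold were dim: of 96 bright miRNAs, defined by 100 net units or more on each array and including the 5 members, 0 reached it, while 28 lay past 2 spot SD.

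miR-30e-5p had the highest difference, 0.18 (spot SD 0.099), or 1.13-fold. miR-30d-5p followed at 0.14 (spot SD 0.097), miR-30c-5p at 0.12 (0.097) and miR-30a-5p at 0.11 (0.097). miR-30b-5p was the only member below 0, at -0.033 (spot SD 0.097). With 2 spot SD on either side these differences spanned -0.018 to 0.38 for miR-30e-5p and -0.23 to 0.16 for miR-30b-5p, so all 5 spans included 0.

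The signs depended on the scaling. Scaling on the 96 bright miRNAs alone, which lowers every difference by 0.14, left miR-30e-5p at 0.042 and put miR-30d-5p at -0.0011, miR-30c-5p at -0.013, miR-30a-5p at -0.031 and miR-30b-5p at -0.17. With no scaling miR-30a-5p was also below 0, at -0.013. Scaling to the control probes moved the median of all 910 to 0.060 and that of the 96 bright miRNAs to 0.20. There miR-30b-5p was above 0, at 0.027. miR-30e-5p, at 0.24, and miR-30d-5p, at 0.20, then lay more than 2 spot SD above 0, unlike on the scale used above. In the authors' deposited table the values of miR-30b-5p were 2228 and 2180 (log2 difference -0.032), and those of miR-30e-5p 520 and 590 (0.18). That table uses the same kind of background and scaling, so it is no separate measurement.

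**Figure D2:**
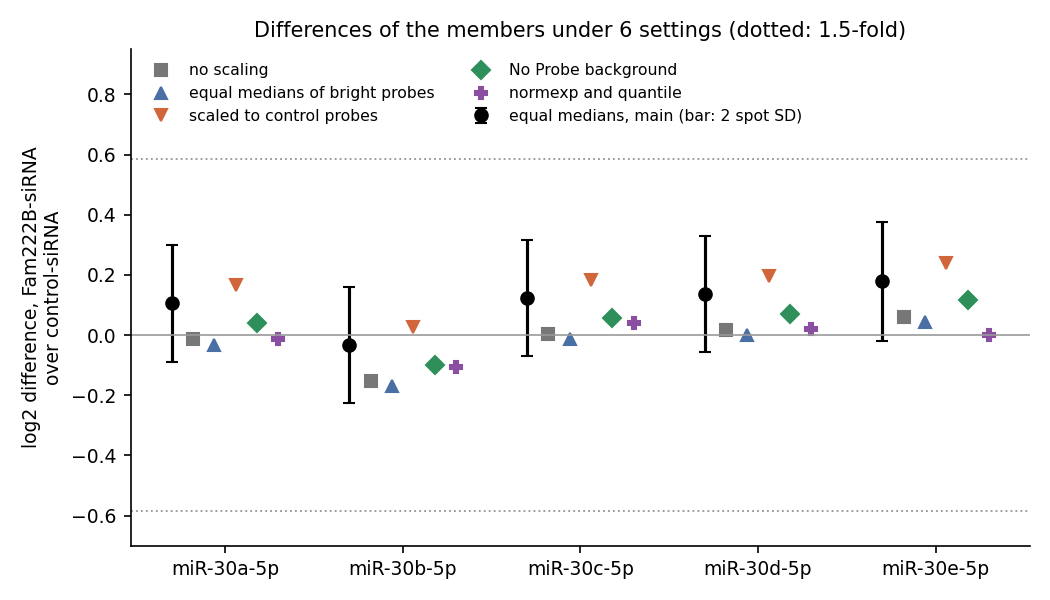
log2 difference of each member, Fam222B-siRNA over control-siRNA, under 6 settings, with 2 spot SD as bars on the main setting and dotted lines at 1.5-fold. All points lie between -0.17 and 0.24, inside the dotted lines, and miR-30b-5p has the lowest point in each setting shown. The setting with the local background column is not shown. There miR-30d-5p was at -0.88 and miR-30e-5p at -1.01, outside the dotted lines, and the other members had no value.

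miR-30b-5p had the lowest difference of the 5 members under all 12 settings in which every member had a value. A change of scaling alone moves all members together, so 5 of the 11 alternatives among these settings could not alter that order. Others could hardly alter it. The authors' values follow the same spots in a straight line. On the Fam222B-siRNA array the blank mean was 69.9 units, the trimmed mean 69.8 and the No Probe mean 69.2, against members at 160 net units or more. All settings read the same spots, so their number is no separate support for the order. The distance from miR-30b-5p to miR-30e-5p was -0.21 on the log2 scale, with a spot SD of 0.14 and a span of -0.49 to 0.064 at 2 spot SD. Over the 10 pairs of members, 0 differed from each other by more than 2 spot SD, and the widest gap was 1.54 spot SD. A different response of the members was thus not detectable, and the span does not show that they responded alike.

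The family as a whole lay where bright probes in general lay. The median difference of the 5 members was 0.12, with 4 above 0 and 1 below, and that of their summed signal was 0.081 (spot SD 0.047). The median was 0 by construction over all 910 miRNAs, of which 455 were above 0, and 0.14 over the 96 bright miRNAs, of which 75 were above 0 and 21 below. The central 80% of the bright miRNAs ran from -0.051 to 0.29, which held all 5 members. Of the bright miRNAs, 31 had a higher difference than miR-30e-5p and 13 a lower one than miR-30b-5p.

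**Figure D3:**
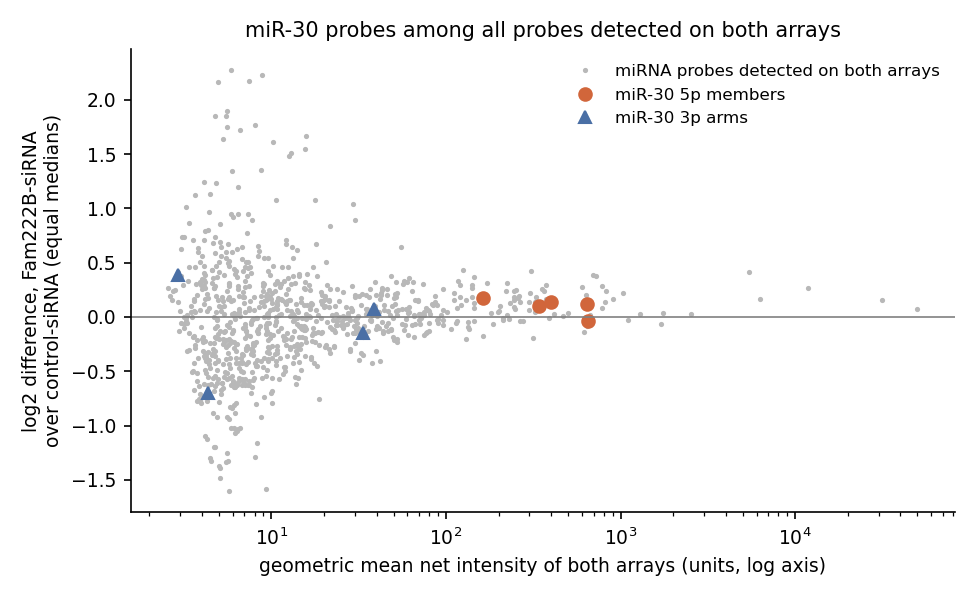
log2 difference, Fam222B-siRNA over control-siRNA (vertical axis), against the geometric mean net intensity of both arrays in units (log axis) for the 910 miRNAs detected on both arrays, with the miR-30 members and 3p arms marked. The 5 members lie between -0.033 and 0.18 among the bright probes, while dim probes spread much more widely.

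Other broadly expressed families gave like median differences, and their differences in summed signal were higher in value. The let-7 family restrains proliferation and stem cell programmes. Its list, which held miR-98-5p and 9 let-7 miRNAs without let-7j, had 8 of 10 members above 0 and a median of 0.15, from -0.032 to 0.36. The miR-29 family, known for repressing collagens and DNA methyltransferases, had 3 of 3 above 0 and a median of 0.14. Across the clusters of miR-23, miR-24 and miR-27, 5 of 5 were above 0 with a median of 0.14. The summed signal differed by 0.18 for let-7, 0.18 for miR-29 and 0.19 for these clusters. That of the miR-30 family differed by 0.081 (spot SD 0.047). No spot SD was computed for the sums of the other families, so whether the sums differ beyond their spread was not tested. No member of these lists reached 1.5-fold, and on the scale set by the bright miRNAs every value would be lower by 0.14.

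The non-member probes nearest to each miR-30 member were picked by log2 net signal over the 2 arrays. Their brightness and their differences between the arrays therefore follow from the choice. Nearest to miR-30a-5p were miR-29a-3p, at 330 and 334 net units (distance 0.030 in log2 units), and miR-21a-5p (0.088). Nearest to miR-30b-5p were miR-6955-5p, at 663 and 577 (0.036), and miR-2861 (0.061). miR-125a-3p (0.055) and miR-31-5p (0.061) were nearest to miR-30c-5p, miR-22-3p (0.11) and miR-709 (0.12) to miR-30d-5p, and miR-5112 (0.077) and miR-3084-3p (0.14) to miR-30e-5p. Likeness over 2 arrays rests on 2 values a probe and describes these spots only.

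The members were printed in 5 different blocks of the array, so they share no block. The other detected miRNAs of a member's block had median differences of -0.21 for miR-30a-5p (31 miRNAs), 0.012 for miR-30b-5p (26), -0.071 for miR-30c-5p (27), -0.25 for miR-30d-5p (23) and 0.19 for miR-30e-5p (35). The block of miR-30e-5p, the highest member, was thus the highest of these, and the part of the block in the result was not tested. With the blank spots of its own block as background the difference of miR-30e-5p was 0.17.

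The 3p arms come from the other strand of each hairpin and carry another seed. Of the 6 on the array, 6 were detected in control-siRNA cells and 4 on both arrays, and their net signals summed to 88.5 and 74.9 units against 2133 and 2078 for the 5p arms. Most of that came from miR-30a-3p and miR-30e-3p, which are shown because they too differ by a single substitution, G18A.
miR-30a-3p: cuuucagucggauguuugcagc
miR-30e-3p: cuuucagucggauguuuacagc
miR-30a-3p gave 37.7 net units with the control siRNA and 36.6 with the Fam222B siRNA, a scaled difference of 0.075 (spot SD 0.13). miR-30e-3p gave 35.3 and 29.5, a difference of -0.14 (0.14). Both spans at 2 spot SD included 0.

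The 5p spot of the miR-30a hairpin was 8.76 times as bright as its 3p spot with the control siRNA and 8.95 times with the Fam222B siRNA. For the miR-30e hairpin the ratio was 4.33 and 5.42, and its 5p difference exceeded its 3p difference by 0.32 (spot SD 0.17), which is within 2 spot SD. A difference between the arms of a hairpin does not depend on scaling by a single factor, which moves both arms together. Differences did vary with brightness, with a median of 0.14 over the bright miRNAs and 0 over all 910. The 5p arm was the brighter one, and the part of brightness in the contrast was not tested. Different probes are compared in these ratios, so their size is not a ratio of molecules.

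The remaining 3p arms were near the threshold. miR-30b-3p gave 5.51 and 3.12 net units and miR-30d-3p 2.57 and 3.08, with spot SDs of 0.87 and 1.17 on the log2 scale, too wide to read a difference. miR-30c-2-3p gave 4.91 net units with the control siRNA and was not well above background with the Fam222B siRNA, which bounds it at 1.74-fold or more lower there if the 4.91 units are taken as exact. With a blank SD of 1.54 units that value is too close to the background to read a difference. miR-30c-1-3p gave 2.44 net units and was detected in control-siRNA cells alone, with no fold to give. This direction was common among dim probes, with 309 miRNAs detected in control-siRNA cells alone and 48 in Fam222B-siRNA cells alone. miR-384-5p, which has the seed of the family, was not detected on either array, at -0.031 and -0.15 net units. The array also held a probe named miR-30f, which is not among the members described here. It gave 36.9 net units with the control siRNA and 33.4 with the Fam222B siRNA, a scaled difference of -0.024 (spot SD 0.13).

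**Figure D4:**
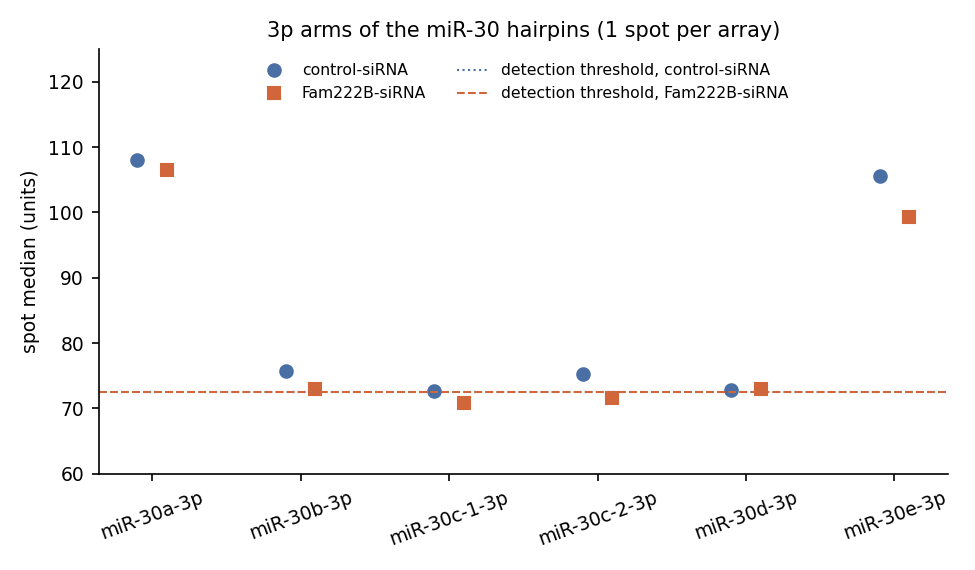
Spot median in units, before background subtraction, of the 6 miR-30 3p arms in control-siRNA and Fam222B-siRNA cells, 1 spot per array, with each array's detection threshold (72.6 and 72.5) as a line. miR-30a-3p and miR-30e-3p lie near or above 100 on both arrays, and the other 4 lie within a few units of the thresholds.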

How the data were processed

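RNA was labelled with Cy5 and measured on 1-colour 3D-Gene arrays from Toray, per the labels' protocols. Per the file headers, the deposited scanner files hold 1 median intensity per spot, without background subtraction, from scans at 3 gains. The authors' deposited table holds processed intensity values. Both of its columns follow the spot median in a straight line (slopes 3.40 and 3.69, backgrounds of 70.2 and 69.8 units, medians 25.0 and 34.6), so its scale is linear, it is not centred per miRNA, and its direction follows the labels. The scanner is not given in the sources used here.

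Groups were taken from the treatment in the labels. Spots with a failed flag were left out (1 miRNA per array, no member). Detection required a spot above the blank spots' mean by over 2 of their SDs, computed without the lowest and highest 5% of blanks. Net signal, equal medians and the spot SD were computed as the report describes, in Python 3.11.15 with numpy 2.4.6 and pandas 2.3.3. A bound for a miRNA detected on 1 array sets the bright value against the lowest detected signal of the other array or the miRNA's own, whichever is higher. The alternative normexp correction (offset 50) with quantile normalization used limma 3.58.1 in R 4.3.3. The steps were run on simulated arrays whose noise was drawn from the same control-probe and blank spread. That run could not test the spot SD, nor a shift between arrays that varies with brightness. The members and lists were chosen with earlier results of these data known. Named miRNAs are the members, array miRNAs with their seed, their 3p arms, miR-30f, the 2 nearest probes per member, and marker miRNAs. miRNA names follow the array's design. The files name no genome build, and coordinates are those of the RefSeq table.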

Additional observations from a re-analysis of the deposited data

How the results depend on the processing

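Of 12 alternatives, the summed signal of the family (log2 difference 0.081) moved by more than its spot SD under 6. It was 0.014 with the No Probe background, -0.038 with no scaling, -0.056 with equal medians of the bright miRNAs, 0.14 with scaling to the control probes and -0.017 with normexp and quantile normalization. The median over the members (0.12) became 0.0050 with no scaling, -0.013 with equal medians of the bright miRNAs and 0 with quantile normalization, which gives 0 to a miRNA that keeps its rank. With the files' local background column 3 of the 5 members had no value, because that column was at or above the spot on an array, and the other 2 differed by -0.88 (miR-30d-5p) and -1.01 (miR-30e-5p). The sum was then -0.90, the median -0.94 and the count past 1.5-fold 2, with miR-30e-5p also past 2-fold. The count past 1.5-fold was 0 under the other alternatives, and 0 members passed 2-fold in the main setting. That column reads 165 to 742 units at the members' spots, where blank spots average about 70. The trimmed blank background, the blank spots of the own block, equal 75th percentiles, detection at 5 SD, an offset of 16 and the authors' table kept the sum and the median within the spot SD. No paired analysis was possible because each group has 1 array, and for the same reason no replicate could be left out.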
